A study of Mus musculus with 6 samples.

Results

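Chemokine ligands are the small secreted proteins that direct leukocytes to tissues, and their RNA was examined here in colon of young C57BL/6J mice whose dams had or had not been given dextran sulfate sodium (DSS). Members were all rows of the deposited table whose symbol begins with Ccl, Cxcl or Xcl and a number, or is Cx3cl1. That rule found 33 rows, of which 3 annotated by RefSeq as pseudogenes (Cxcl11, Ccl19-ps1 and Ccl19-ps2) were left out, so 30 of 20594 genes were members. Of these, 10 were classed as homeostatic, 11 as inflammatory and 9 as mixed. Ccl1, Ccl3, Ccl4, Ccl26, Cxcl2, Cxcl3 and Cxcl15 were not analysed here.

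The 3 control libraries came from 3-week-old offspring of dams given 0% DSS, and the 3 maternal DSS libraries from 3-week-old offspring of dams given 1.5% DSS. This polymer injures the gut epithelium of an animal that drinks it. The labels place the exposure at embryonic days 13 to 19, whereas the series' design text speaks of 5 days in the second trimester. All offspring were C57BL/6J, and only the dams received DSS. The titles speak of 3 offspring for every library, which may mean a pool of animals or the size of the group. No dam, litter, sex or batch is named, so p-values measure the spread between these libraries, which may be technical, and if libraries share a dam, her effect is confounded with the exposure.

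Homeostatic chemokines are made without an inflammatory stimulus and place lymphocytes and dendritic cells in lymphoid and mucosal tissue. Inflammatory chemokines are switched on by cytokines and microbial products, largely through NF-kB and interferon signalling, and bring in neutrophils, monocytes, eosinophils and effector T cells. In the gut, Ccl25 and its receptor Ccr9 are known for directing lymphocytes to the small intestine, and Ccl28 and its receptor Ccr10 for directing IgA-producing plasma cells to mucosal surfaces, the colon included.

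Values are FPKM (fragments scaled for transcript length and library size), a level per length that can be compared between genes. Where 3 values are given for a group, they stand in the order of libraries 1, 2 and 3. Read depth is unknown, FPKM summed to between 403673 and 492719 per library, and 13249 to 13739 genes per library reached 1 FPKM. Colon epithelial markers were abundant in every library, with Car1, a colonocyte carbonic anhydrase, at 4528 to 7277 FPKM and the colonic mucin Muc2 at 518 to 1002 FPKM, and 1 of 9, the keratin gene Krt20, had a limma unadjusted p under 0.05 (log2 fold change 0.22, SE 0.09). Maternal DSS 2 and 3 stood apart in most listed transcripts of the small intestine. The 8 of 13 listed marker genes that had values summed to 112 and 111 FPKM there, to 13.9 FPKM in maternal DSS 1 and to 11.8 to 26.4 FPKM in controls. All 5 that were tested had a log2 fold change above 0, of which Itln1 (1.65, SE 0.63, limma unadjusted p = 0.034) and the Paneth cell protease gene Mmp7 (0.85, SE 0.31, limma unadjusted p = 0.026) passed the unadjusted threshold. None of the 8 was at 0, and the lactase gene Lct stayed at 0.073 FPKM or less in all 6 libraries. Much of the sum in maternal DSS 2 and 3 was Fabp6, at 72.7 and 52.4 FPKM. Fabp6 had 2.08 FPKM in maternal DSS 1 and 1.84 to 14.2 FPKM in controls (limma unadjusted p = 0.20). Itln1, Lyz1, Mmp7, Sis and Apoa4 were also highest in maternal DSS 2 and 3, whereas Apoc3 was highest in control 1, at 0.50 FPKM.

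The promoter sequences of 3 members are shown because Ccl25 had the largest difference between groups, and because Cxcl1 and Ccl20 carry the NF-kB motif linked to inflammatory induction. RefSeq promoter windows of GRCm38.p6 (the assembly named mm10), each 300 bases long and spanning a start site, were on file for 22 of the 30 members. Ccl25 has 2 annotated starts, at chr8:4324960-4325259 and chr8:4349338-4349637, both on the plus strand. Capitals in them mark TTTAT on either strand, the core of the sites bound by the intestinal factor Cdx2, which is known to act on the mouse Ccl25 promoter.
Ccl25 upstream start: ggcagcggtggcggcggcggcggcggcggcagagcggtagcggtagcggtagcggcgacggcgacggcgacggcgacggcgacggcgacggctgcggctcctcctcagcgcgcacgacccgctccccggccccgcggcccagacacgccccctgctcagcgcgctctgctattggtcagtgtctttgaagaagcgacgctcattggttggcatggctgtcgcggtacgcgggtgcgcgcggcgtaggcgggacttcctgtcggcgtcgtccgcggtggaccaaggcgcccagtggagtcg
Ccl25 downstream start: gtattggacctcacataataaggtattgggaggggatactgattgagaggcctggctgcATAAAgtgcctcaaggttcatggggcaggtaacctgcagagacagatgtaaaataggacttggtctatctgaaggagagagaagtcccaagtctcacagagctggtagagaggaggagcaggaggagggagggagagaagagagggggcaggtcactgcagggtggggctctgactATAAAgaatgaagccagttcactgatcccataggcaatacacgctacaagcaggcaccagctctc
The upstream window held no match, had 74% G and C bases and 52 CG pairs. The downstream window had 51.7% G and C bases, 1 CG pair and 2 matches, beginning at positions -191 and -15 relative to the start, the latter of which overlaps the TATA box motif TATAAA. The core motif is common, standing in 40% of 32817 promoter windows of this length. The table gives 1 value for Ccl25 over all its transcripts, so its level could not be assigned to either start. Cdx2 itself had 56.1 to 63.3 FPKM in controls and 54.8 to 67.5 FPKM in maternal DSS libraries.

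For Cxcl1 (chr5:90890995-90891294, plus strand) and Ccl20 (chr1:83116516-83116815, plus strand), capitals mark GGGNNTTTCC on either strand (N, any base), a form of the NF-kB motif that overlapped no TATAAA in these windows.
Cxcl1: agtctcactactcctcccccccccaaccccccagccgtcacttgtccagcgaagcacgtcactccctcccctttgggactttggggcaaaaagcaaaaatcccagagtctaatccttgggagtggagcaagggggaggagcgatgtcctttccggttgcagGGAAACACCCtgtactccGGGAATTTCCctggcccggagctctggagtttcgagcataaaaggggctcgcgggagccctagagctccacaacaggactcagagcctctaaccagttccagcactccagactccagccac
Ccl20: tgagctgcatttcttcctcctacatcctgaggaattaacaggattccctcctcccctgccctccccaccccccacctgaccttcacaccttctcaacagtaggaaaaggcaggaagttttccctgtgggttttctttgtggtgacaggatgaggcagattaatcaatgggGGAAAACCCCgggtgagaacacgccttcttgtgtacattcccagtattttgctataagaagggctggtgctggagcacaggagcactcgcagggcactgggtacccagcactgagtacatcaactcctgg
The motif began at positions -89 and -71 in Cxcl1 and at -80 in Ccl20. It stood in 1.63% of all promoter windows and in 3 of the 28 windows of members. By gene, these belonged to 3 of the 22 members (Ccl9, Ccl20 and Cxcl1). A match is a run of letters, and no binding was measured.

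Homeostatic ligands had higher levels than inflammatory ones in both groups. Ccl6, a mixed-class ligand that acts on Ccr1, was the most abundant member in every library and made up 45.8% to 59.1% of the summed chemokine FPKM. Ccl21a, Cxcl12, Ccl28 and Cx3cl1 followed at 16.5 to 57.4 FPKM. Among inflammatory ligands, Ccl11 alone exceeded 10 FPKM. The mean log2(FPKM + 1) of the 10 homeostatic ligands stood at 2.62, 2.67 and 2.76 for controls 1, 2 and 3, and at 2.66, 2.87 and 2.80 for maternal DSS 1, 2 and 3. For the 11 inflammatory ligands it stood at 1.22, 1.22 and 1.40 for controls, and at 1.15, 1.49 and 1.42 after maternal DSS. Both classes were high in maternal DSS 2 and 3 and in control 3, and their ranges overlapped between groups. The gap between the classes, homeostatic minus inflammatory, was 1.37 to 1.45 in controls and 1.37 to 1.51 in maternal DSS libraries. Inflammatory ligands supplied 5.69% to 7.04% of the summed chemokine FPKM in controls and 7.23% to 8.04% in maternal DSS libraries, without overlap. Their sum ran from 20.9 to 39.9 FPKM over the libraries, and Ccl11 was the largest part of it, at 8.96 to 20.7 FPKM. With Ccl6 left out of the sum the share was 12.1% to 15.3% in controls and 13.3% to 19.6% after maternal DSS, and the groups overlapped. Homeostatic ligands supplied 28.5% to 32.7% of the whole sum in controls and 24.7% to 35.2% after maternal DSS, and mixed ligands 60.2% to 64.9% and 57.6% to 67.2%, also with overlap. No class-level difference was tested.

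**Figure D1:**
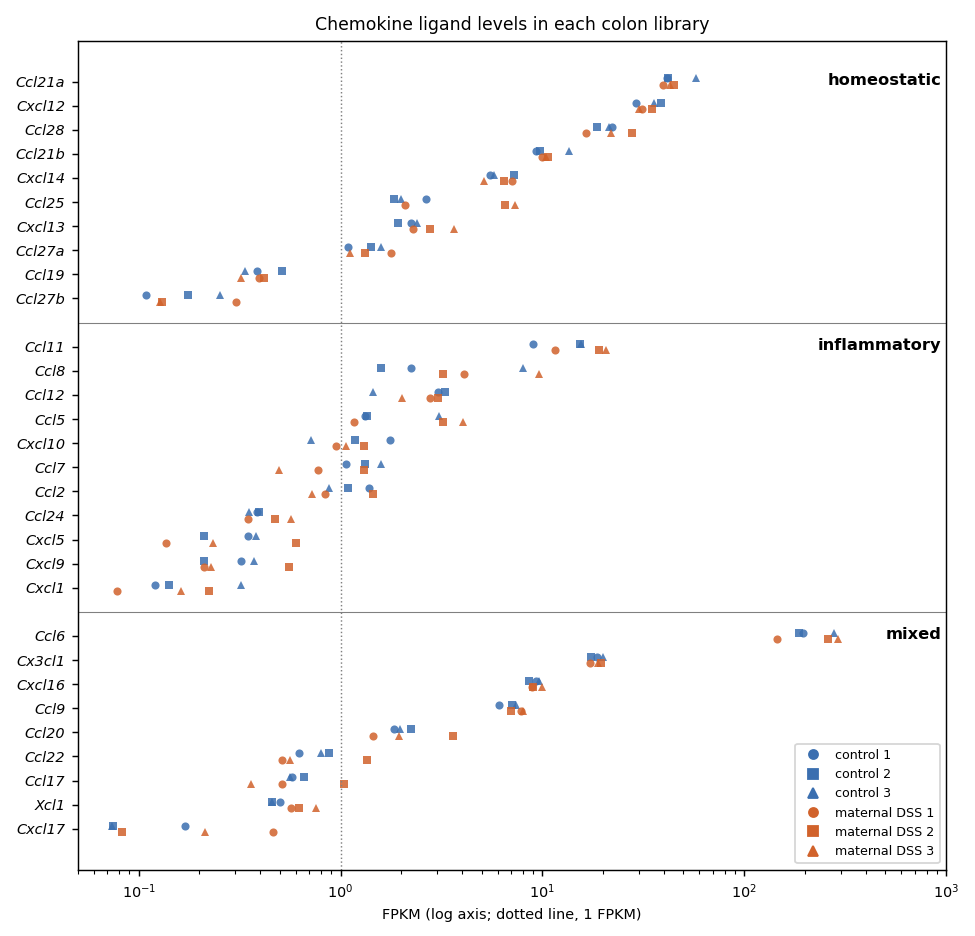
FPKM of the 30 chemokine ligands (log axis) in each library, grouped by class, with controls in blue and maternal DSS in orange and the replicate number as marker shape. Ccl6 lies at 145 to 293 FPKM, Ccl25 in maternal DSS 2 and 3 lies apart from the other 4 libraries, and 8 members stay under 1 FPKM throughout.

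No chemokine ligand differed between groups at the adjusted threshold. Values were compared with limma on log2(FPKM + 1) over the 13594 genes that reached 1 FPKM in at least 3 libraries, and a positive fold change means a higher level in maternal DSS, on a scale that understates low genes. Of the 30 members 20 were tested, and 0 had an adjusted p under 0.05, as did 0 of all genes (0%, smallest adjusted p = 0.493). One member of the 20, Ccl25, had an unadjusted p under 0.05 (1 of 20, 5%), against 7.83% of all genes tested (2.42% higher, 5.41% lower). The groups did not overlap in 1 of 30 members (Xcl1, higher), against 12.9% of all 20594 rows (4.7% higher, 8.17% lower). Both shares lay below the background of the 2 directions together, but the 5% for Ccl25, called higher, lay above the 2.42% of genes called higher. With 1 member each, these shares do not set the members apart from the background. Array weights, which weight each library by its scatter, gave 5 of 20 members with an adjusted p under 0.05, against 36.3% of all genes, and 7 unadjusted, against 49.9%. The weight was 5.47 for maternal DSS 2 and 0.25 and 0.45 for maternal DSS 1 and 3. The maternal DSS group of that fit thus rested mainly on maternal DSS 2. Without maternal DSS 1, 1 member had an adjusted p under 0.05 (0.0883% of all genes) and 4 an unadjusted one (24.8%).

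The count of members above 0 moved with the scaling, which shifted all genes. Of the 20 tested members 13 had a log2 fold change above 0, against 40.3% of all genes. After TPM scaling 7 members and 19.8% of all genes did, and after median-ratio scaling 15 members and 52.2%. The median over all genes moved with TPM scaling, from -0.04 to -0.14. By gene, 6 of the 20 members changed sign after TPM scaling and 2 after median-ratio scaling. Relative to the median of all genes, 14 members lay above it as deposited, 15 after TPM scaling and 14 after median-ratio scaling. Class medians were 0.01 for the 8 homeostatic, 0.04 for the 7 inflammatory and 0.04 for the 5 mixed ligands tested. Without maternal DSS 2, 9 of the 20 members lay above the median of all genes, and without maternal DSS 2 and 3 together 6 did.

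**Figure D2:**
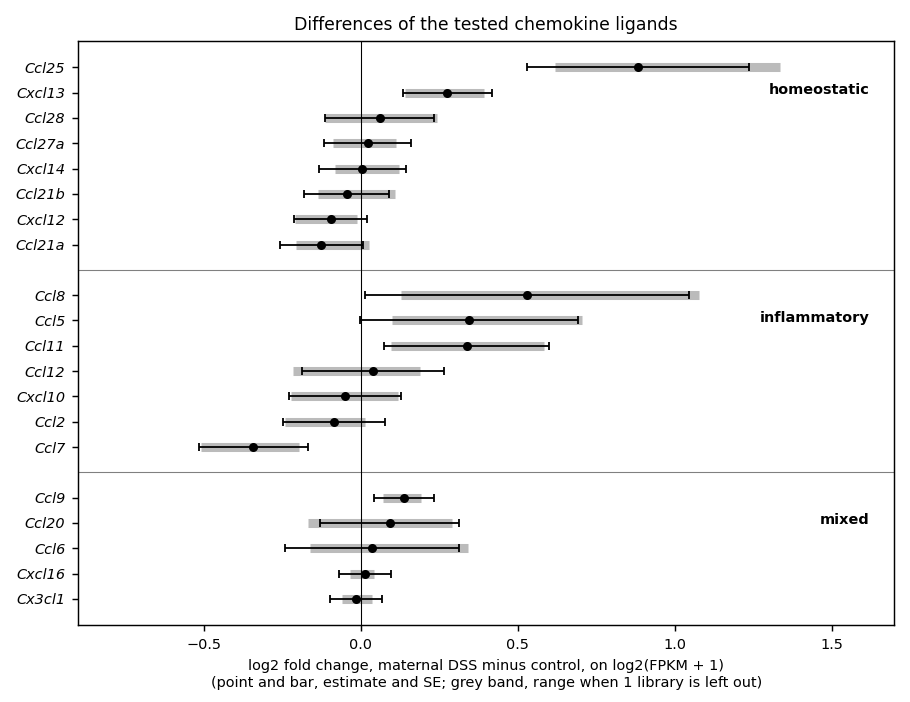
Log2 fold change of the 20 tested chemokine ligands, maternal DSS minus control, by class. Points and bars give the limma estimate and its SE, and grey bands the range of the estimate when each of the 6 libraries is left out in turn. Ccl25 has the largest estimate (0.88), and bands of 12 members reach both sides of 0.

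Among homeostatic ligands, Ccl25 (chromosome 8, 4325205 to 4360020), which small-intestinal epithelium makes to attract Ccr9-bearing lymphocytes, was high in 2 libraries. It had 2.64, 1.85 and 2.00 FPKM in the controls, and the maternal DSS libraries had 2.1, 6.55 and 7.35 FPKM. Maternal DSS 2 and 3 lay above all controls, and maternal DSS 1 lay within the control range. The mean was 5.33 ± 2.83 FPKM after maternal DSS and 2.16 ± 0.419 FPKM in controls (SD, n = 3 for both; the log2 fold change was 0.88, SE 0.35, unadjusted p = 0.040, limma adjusted p = 0.62; exact permutation p = 0.2). Maternal DSS 2 and 3 are also the libraries with high small-intestinal transcripts, and their part in the Ccl25 level was not tested. Without maternal DSS 1, Ccl25 had a log2 fold change of 1.34 (limma adjusted p = 0.0275), 1 of 12 genes called in that fit (0.0883%). Leaving out any other single library gave log2 fold changes of 0.62 to 0.99 with limma unadjusted p-values of 0.052 to 0.13, and the fit without the filter gave 0.057, so the unadjusted call was lost in each. Without maternal DSS 2 and 3 it was -0.02, with 1 library left in that group and assumed to vary like the controls.

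The receptor gene of Ccl25 was near the lower end of the table. Ccr9 had 0.055, 0.065 and 0.096 FPKM in the controls, and the maternal DSS libraries had 0.081, 0.19 and 0.14 FPKM, so the same 2 libraries were highest. Ccr10, the receptor gene for Ccl28, had 0.054 to 0.14 FPKM in the controls, and the maternal DSS libraries had 0.093, 0.34 and 0.26 FPKM. The 10 B and plasma cell markers, which include IgA, summed to 149, 739 and 1043 FPKM in maternal DSS 1, 2 and 3, against 94 to 139 FPKM in controls. Of its 5 tested genes the antibody chain genes Igha (2.08, SE 0.62) and Igkc (2.26, SE 0.67) and Jchain (1.86, SE 0.70) had limma unadjusted p-values of 0.012, 0.011 and 0.032. The part of these cells in the levels of Ccl25 and Ccl28 was not tested. Neither Ccr9 nor Ccr10 reached the filter. In bulk tissue, a change in the number of cells of a type and a change in RNA per cell cannot be told apart.

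Ccl28 (chromosome 13, 119623819 to 119654359), the epithelial ligand for Ccr10, was abundant in all libraries. It had 22.1, 18.5 and 21.4 FPKM in the controls, and the maternal DSS libraries had 16.5, 27.7 and 21.8 FPKM. The maternal DSS group held both the lowest and the highest library and spanned the controls. The log2 fold change was 0.06 (SE 0.17, limma adjusted p = 0.91), and it was -0.05 after TPM scaling and -0.11 without maternal DSS 2.

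Cxcl13 (chromosome 5, 95956939 to 95961068), which attracts B cells to lymphoid follicles through Cxcr5, had 2.23, 1.93 and 2.40 FPKM in the controls, and the maternal DSS libraries had 2.28, 2.76 and 3.64 FPKM. Maternal DSS 2 and 3 again lay above the controls and maternal DSS 1 among them. Its log2 fold change was 0.28 (SE 0.14, unadjusted p = 0.091, limma adjusted p = 0.62), and it ran from 0.14 without maternal DSS 3 to 0.39 without maternal DSS 1 (limma unadjusted p = 0.018). Cxcr5 had 0.27 to 0.31 FPKM in maternal DSS libraries and 0.30 to 0.58 FPKM in controls. Of 5 lymphoid follicle markers with values 3 were tested, with a median log2 fold change of 0.01. The follicle markers Cr2, a complement receptor gene, and Fcer2a, an IgE receptor gene, were highest in control 1, at 0.39 and 0.53 FPKM. Glycam1 of the same list, a ligand for lymphocyte L-selectin on high endothelial venules, read 1.73, 1.19 and 0.93 FPKM among controls against 5.47, 6.13 and 3.10 FPKM after maternal DSS. All maternal DSS values lay above the controls (log2 fold change 1.34, SE 0.23, limma unadjusted p = 0.00050), although no gene passed the adjusted threshold, and its part in the Cxcl13 level was not tested. The other tested genes were Madcam1, also a venule addressin, at 1.31 FPKM in controls and 1.34 FPKM after maternal DSS on average (log2 fold change 0.01, SE 0.12), and Clu (-0.29, SE 0.18).

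The ligands of Ccr7, which guides dendritic and naive T cells along lymphatic vessels, did not differ beyond their spread. Ccl21a (chromosome 4, 42772860 to 42773991) had 41.4, 41.9 and 57.4 FPKM in the controls, and the maternal DSS libraries had 39.8, 44.9 and 42.8 FPKM. Control 3 was the highest library, and the other 5 lay close together. Its log2 fold change was -0.13 (SE 0.13, limma adjusted p = 0.74). The near-identical Ccl21b read 9.29, 9.68 and 13.5 FPKM among controls against 9.91, 10.7 and 10.4 FPKM after maternal DSS (log2 fold change -0.04, SE 0.14). Control 3 was again highest, and the values of these copies are uncertain because the authors' counting could split reads between them. Ccl19, the third ligand, stayed between 0.32 and 0.51 FPKM.

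The stromal ligand Cxcl12 (chromosome 6, 117168535 to 117181368) had 29.1, 38.5 and 35.7 FPKM in the controls, and the maternal DSS libraries had 31.2, 35.0 and 30.0 FPKM. Its groups overlapped fully, with a log2 fold change of -0.10 (SE 0.12, limma adjusted p = 0.77). Its receptor gene Cxcr4 ranged from 1.64 to 2.57 FPKM, and Ackr3, a scavenger receptor of Cxcl12, had 10.6 to 15.0 FPKM in controls and 8.55 to 10.6 FPKM in maternal DSS libraries (log2 fold change -0.31, SE 0.14, limma unadjusted p = 0.056). The epithelial ligand Cxcl14 read 5.52, 7.26 and 5.79 FPKM among controls against 7.09, 6.48 and 5.11 FPKM after maternal DSS (log2 fold change 0.01, SE 0.14). The Ccr10 ligand Ccl27a read 1.09, 1.41 and 1.58 FPKM among controls against 1.78, 1.32 and 1.11 FPKM after maternal DSS (log2 fold change 0.02, SE 0.14). Its near-identical copy Ccl27b ranged from 0.11 to 0.30 FPKM, and both values are uncertain for the same reason as those of the Ccl21 copies. None of these separated the groups.

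Inflammatory ligands were low and varied more between libraries than most genes. The ratio of the highest to the lowest library had a median of 2.46 over the 7 tested inflammatory ligands, 1.54 over the 8 homeostatic and 1.31 over the 5 mixed ones, against 1.37 over all genes tested. The inflammatory ligands also had lower levels, and the part of level in these ratios was not tested. The neutrophil-attracting Cxcr2 ligands Cxcl1 and Cxcl5 stayed at 0.078 to 0.32 and 0.14 to 0.60 FPKM. Cxcl1, whose promoter carries the NF-kB motif printed above, was thus among the members with the lowest levels.

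The monocyte-attracting ligands Ccl2, Ccl7, Ccl8 and Ccl12 lie with Ccl11 in one stretch of chromosome 11 and had differences of both signs. Ccl8 (82115185 to 82116799), which in the mouse also acts through Ccr8, had 2.24, 1.59 and 8.05 FPKM in the controls, and the maternal DSS libraries had 4.09, 3.20 and 9.64 FPKM. Control 3 and maternal DSS 3 were the high libraries, one in each group. The log2 fold change was 0.53 (SE 0.52, limma adjusted p = 0.72), and it ran from 0.13 without maternal DSS 3 to 1.08 without control 3 (limma unadjusted p = 0.028).

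Ccl7 (82045712 to 82047525) had the opposite sign, with 1.07, 1.32 and 1.59 FPKM in the controls, and the maternal DSS libraries had 0.78, 1.30 and 0.50 FPKM. Maternal DSS 1 and 3 lay below all controls and maternal DSS 2 among them. The log2 fold change was -0.34 (SE 0.17, unadjusted p = 0.089, limma adjusted p = 0.62), and it ran from -0.20 without maternal DSS 3 to -0.51 without maternal DSS 2 (limma unadjusted p = 0.014). Ccl2 read 1.38, 1.09 and 0.87 FPKM among controls against 0.83, 1.45 and 0.73 FPKM after maternal DSS (log2 fold change -0.09, SE 0.16). Ccl12 read 3.04, 3.28 and 1.45 FPKM among controls against 2.77, 3.05 and 2.01 FPKM after maternal DSS (log2 fold change 0.04, SE 0.23). Both overlapped, with control 3 lowest for Ccl12 and maternal DSS 3 lowest for Ccl2. Their receptor gene Ccr2 had 1.37 to 1.89 FPKM in the controls, and the maternal DSS libraries had 1.44, 2.16 and 2.41 FPKM (log2 fold change 0.21, SE 0.15).

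Ccl5 (chromosome 11, 83525778 to 83530518), which T and NK cells make, split the libraries without regard to group. It had 1.33, 1.36 and 3.08 FPKM in the controls, and the maternal DSS libraries had 1.17, 3.21 and 4.03 FPKM. Control 3 stood with maternal DSS 2 and 3, and maternal DSS 1 was the lowest of all. The log2 fold change was 0.34 (SE 0.35, limma adjusted p = 0.73), and it ran from 0.10 without maternal DSS 3 to 0.71 without maternal DSS 1 (limma unadjusted p = 0.026).

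The eosinophil attractant Ccl11 (chromosome 11, 82057832 to 82062955) had 8.96, 15.4 and 15.5 FPKM in the controls, and the maternal DSS libraries had 11.5, 19.02 and 20.7 FPKM. Maternal DSS 2 and 3 lay above all controls, and maternal DSS 1 lay between control 1 and control 2. Its log2 fold change was 0.34 (SE 0.26, limma adjusted p = 0.67), and it ran from 0.10 without control 1 to 0.58 without maternal DSS 1 (limma unadjusted p = 0.032). Ccl24, another eosinophil attractant, stayed between 0.35 and 0.57 FPKM. Siglecf, an eosinophil marker, had 0.62 to 0.77 FPKM in controls and 0.30 to 0.68 FPKM in maternal DSS libraries.

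Macrophage markers were high in control 3 and in maternal DSS 2 and 3, as Ccl5 and Ccl6 were. The 10 markers summed to 140, 162 and 237 FPKM in the controls, and the maternal DSS libraries had 138, 237 and 308 FPKM. All 10 were tested, 9 had a log2 fold change above 0, and 0 had an unadjusted p under 0.05 in limma. The 10 T and innate lymphoid cell markers summed to 21.3 to 26.1 FPKM in controls and 22.8 to 27.0 FPKM in maternal DSS libraries, and 1 of the 6 tested, the T cell receptor gene Trbc2, had a limma unadjusted p under 0.05 (log2 fold change 0.40, SE 0.16). The adipocyte list had a like order of libraries, as did Ly6g of the neutrophil list. The 6 adipocyte markers summed to 78.2, 88.8 and 135 FPKM among controls against 101, 133 and 132 FPKM after maternal DSS. Most of that sum was Fabp4, at 58.5 to 98.5 FPKM. Lep alone of that list did not follow the order. It lay under the filter, with 0.22 to 0.57 FPKM in controls and 0.080 to 0.14 FPKM after maternal DSS, without overlap. The 4 neutrophil markers with values summed to 39.9, 30.5 and 76.4 FPKM against 24.6, 72.9 and 72.9 FPKM, nearly all from Ly6g. The other neutrophil genes S100a8, S100a9 and Csf3r had at most 1.69 FPKM and did not follow that order. In maternal DSS 3, S100a8 and S100a9 had 0.36 and 0.37 FPKM, below control 2. The part of these cell types in the levels of Ccl5, Ccl6, Ccl8 and Ccl11 was not tested.

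**Figure D3:**
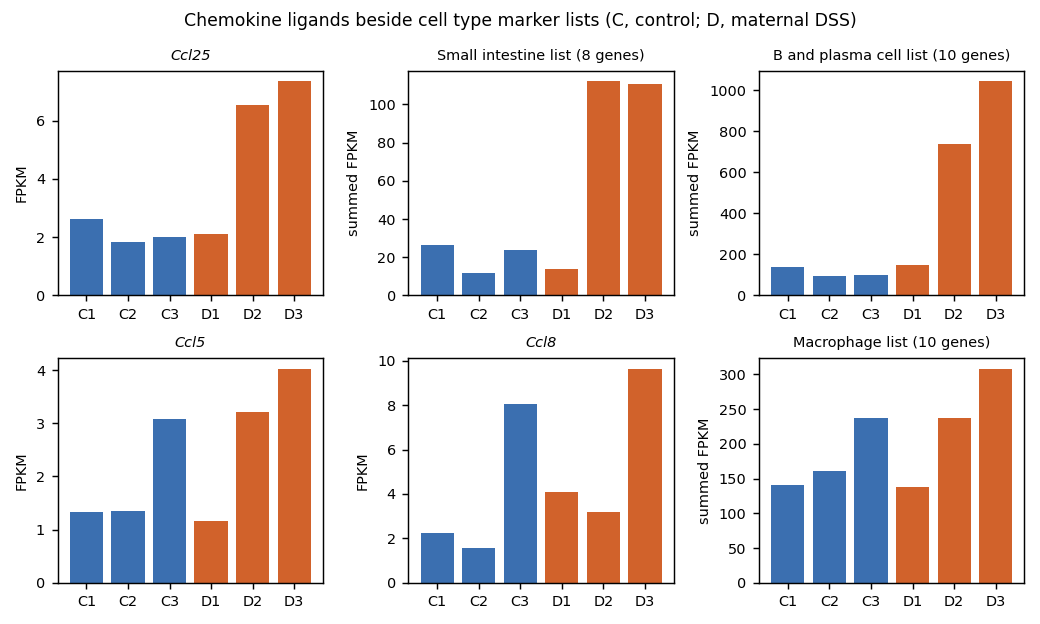
Ccl25, Ccl5 and Ccl8 (FPKM) beside the summed FPKM of 3 marker lists, by library (C, control; D, maternal DSS). Ccl25, the small intestine list and the B and plasma cell list are highest in maternal DSS 2 and 3. Ccl5 and the macrophage list are high there and in control 3, and Ccl8 is high in control 3 and maternal DSS 3.

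Interferon-induced ligands showed no difference between groups beyond their spread. Cxcl10 (chromosome 5, 92346638 to 92348889), which draws Cxcr3-bearing T cells, had 1.75, 1.19 and 0.71 FPKM in the controls, and the maternal DSS libraries had 0.95, 1.31 and 1.06 FPKM. The maternal DSS libraries lay inside the control range, and the log2 fold change was -0.05 (SE 0.18, limma adjusted p = 0.93). Cxcl9 stayed between 0.21 and 0.55 FPKM, and Cxcr3 between 0.29 and 0.42 FPKM. Of 14 other interferon-induced genes, all tested, 7 had a log2 fold change above 0 and 7 below, with a median of 0.02. Ifit3 was higher (0.26, SE 0.08, unadjusted p = 0.013) and Irgm1 lower (-0.25, SE 0.10, unadjusted p = 0.035) at the unadjusted threshold in limma, and none had an adjusted p under 0.05.

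Among mixed-class ligands, Ccl6 (chromosome 11, 83587886 to 83593087) had 195, 187 and 279 FPKM in the controls, and the maternal DSS libraries had 145, 259 and 293 FPKM. The lowest and the highest library both belonged to the maternal DSS group. The log2 fold change was 0.04 (SE 0.28, limma adjusted p = 0.97), with a sign that turned in 6 of 15 alternative settings. Ccl9, its neighbour and a related mouse ligand of Ccr1, had 6.12, 7.04 and 7.37 FPKM in the controls, and the maternal DSS libraries had 7.86, 7.01 and 8.02 FPKM (log2 fold change 0.14, SE 0.10, limma adjusted p = 0.65). Maternal DSS 1 and 3 lay above the controls and maternal DSS 2 just under control 2. Ccr1 had 1.80 to 2.44 FPKM in the controls, and the maternal DSS libraries had 1.99, 3.25 and 2.88 FPKM.

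The membrane-anchored ligands had the smallest ratios of highest to lowest library among the 30 members. Cx3cl1, which is bound by Cx3cr1 on intestinal macrophages, read 18.7, 17.4 and 19.9 FPKM among controls against 17.1, 19.4 and 18.8 FPKM after maternal DSS, a highest-to-lowest ratio of 1.16 (log2 fold change -0.02, SE 0.08). Cxcl16, the ligand of Cxcr6 on T and innate lymphoid cells, read 9.31, 8.62 and 9.58 FPKM among controls against 8.85, 8.99 and 9.97 FPKM after maternal DSS, also a ratio of 1.16 (log2 fold change 0.01, SE 0.08). Cx3cr1 itself had 2.77, 3.39 and 3.01 FPKM in the controls, and the maternal DSS libraries had 2.44, 2.81 and 2.25 FPKM (log2 fold change -0.21, SE 0.11, limma unadjusted p = 0.080). Maternal DSS 1 and 3 were below the controls, and maternal DSS 2 just above control 1.

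Maternal DSS 2 was the highest library for 7 of the 30 members and the lowest for none, whereas it was the highest for 9.75% of all rows and the lowest for 20.1%. Those 7 were Ccl2, Ccl17, Ccl20, Ccl22, Ccl28, Cxcl5 and Cxcl9. Ccl20 (chromosome 1, 83116766 to 83119167), which epithelium over lymphoid follicles makes to attract Ccr6-bearing cells, had 1.83, 2.23 and 1.98 FPKM in the controls, and the maternal DSS libraries had 1.44, 3.59 and 1.95 FPKM. One library of the 6 was high, and maternal DSS 1 was lowest (log2 fold change 0.09, SE 0.22, limma adjusted p = 0.89; without maternal DSS 2 it was -0.17). The dendritic cell products Ccl17 and Ccl22, both ligands of Ccr4, peaked there at 1.04 and 1.35 FPKM and stayed at 0.36 to 0.66 and 0.51 to 0.88 FPKM in the other 5 libraries. The list of 6 follicle-associated epithelium and M cell markers includes Ccl20 itself, so its mean cannot be set beside Ccl20. Of its other genes, Tnfaip2 and Marcksl1 were highest in maternal DSS 2, Gp2 in maternal DSS 1, Spib in control 1 and Anxa5 in control 3. Dendritic cell markers summed to 4.34 FPKM in maternal DSS 2, near the 4.38 FPKM of control 2. The part of these cells in the levels of Ccl17, Ccl20 and Ccl22 was not tested.

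Maternal DSS 1 was the lowest library for 11 of the 30 members, against 13.2% of all rows, and maternal DSS 3 the highest for 10, against 18.1%. For Ccl6 and Ccl28 the SD within the maternal DSS group, 77.6 and 5.64 FPKM, was larger than the difference between the group means.

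**Figure D4:**
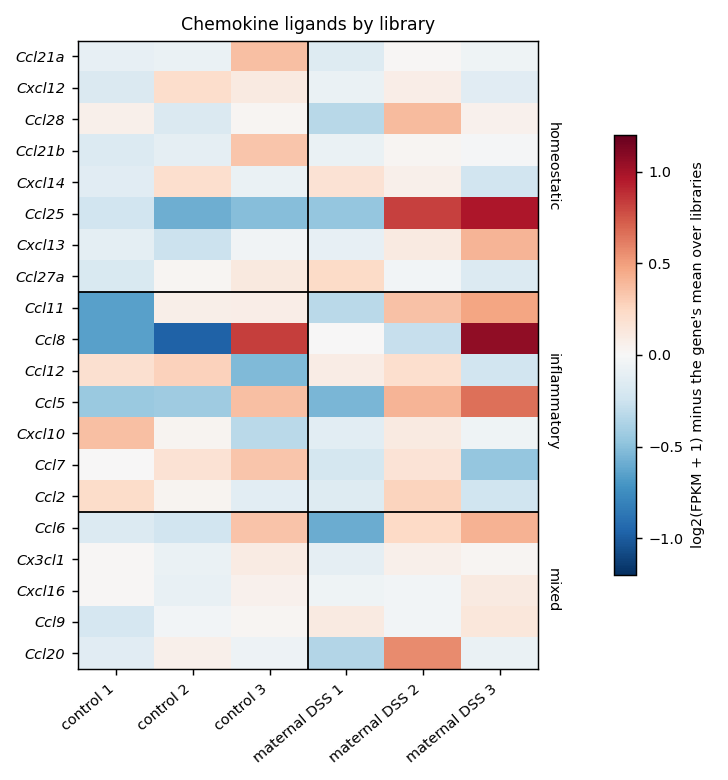
Deviation of each tested chemokine ligand from its mean over the 6 libraries, on log2(FPKM + 1), by class and library. Ccl25 is high in maternal DSS 2 and 3, Ccl8 in control 3 and maternal DSS 3, and Ccl20 in maternal DSS 2, while maternal DSS 1 is low for Ccl6 and Ccl5.

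Xcl1 and Cxcl17 lay under the filter and were compared in the fit without one. Xcl1 (chromosome 1, 164931644 to 164935522), which activated T and NK cells make to attract Xcr1-bearing dendritic cells, had 0.50, 0.46 and 0.46 FPKM in the controls, and the maternal DSS libraries had 0.57, 0.62 and 0.76 FPKM. Each maternal DSS library exceeded every control, with a log2 fold change of 0.16 (unadjusted p = 0.030, limma adjusted p = 0.68 without the filter; exact permutation p = 0.1, the smallest that 3 against 3 libraries allow). Xcr1 ranged from 0.097 to 0.19 FPKM. The mucosal ligand Cxcl17 had 0.46 FPKM in maternal DSS 1 and 0.074 to 0.21 FPKM elsewhere (log2 fold change 0.17, SE 0.11 without the filter).

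Receptors and cytokines of the pathway gave no call either. Of 14 chemokine receptor genes with values, 4 were tested, 3 with a log2 fold change above 0, and 0 had an unadjusted p under 0.05 in limma. Of 5 atypical receptor genes 3 were tested, 2 of them above 0, and again 0 had an unadjusted p under 0.05. Ackr4, which scavenges Ccl19, Ccl21 and Ccl25, had 4.69, 6.14 and 6.41 FPKM in the controls, and the maternal DSS libraries had 5.94, 6.56 and 9.58 FPKM (log2 fold change 0.29, SE 0.18, unadjusted p = 0.14). The chemokine-inducing cytokine genes Il1b and Tnf stayed at or under 0.56 FPKM in all libraries. Il18, an epithelial cytokine gene, had 28.0, 25.5 and 38.9 FPKM in the controls, and the maternal DSS libraries had 22.9, 46.7 and 45.0 FPKM (log2 fold change 0.26, SE 0.28). Maternal DSS 2 and 3 were high with control 3 next, and maternal DSS 1 was lowest.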

How the data were processed

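Per the labels' protocols, colon RNA went into a stranded mRNA kit. The authors deposited 1 table of FPKM values for 20594 genes in 6 libraries. Tools listed in the submitters' processing notes, with no role or order, are StringTie 2.1.3b, HISAT2 2.1.0, Trimmomatic 0.38, FastQC 0.11.7 and DESeq2, and the build is mm10. The annotation and any filter are not given in the sources used here. Low FPKM values did not fall on steps of whole reads (at most 29% lay within 0.1 of a step, against 20% for an even spread), so no counting error is given.

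From the deposited FPKM, log2(FPKM + 1) was fitted with limma 3.58.1 in R 4.3.3 for group alone, with a mean-variance trend, over genes at 1 FPKM or more in at least 3 libraries. Benjamini-Hochberg adjustment ran over all genes tested, and 0.05 was the threshold. The fit was tested on simulated data. Alternatives were TPM and median-ratio scaling, a pseudocount of 0.1, no filter, a filter of 5 FPKM, no trend, a replicate block, array weights, each library left out in turn and, added after the data were seen, maternal DSS 2 and 3 left out together and Ccl6 left out of the summed FPKM. Tested genes were kept fixed except where the filter was varied. The members, classes and marker lists were chosen with earlier results of these data known. The naming rule was values in every library for members that passed the filter, ranges for the others, and, from the receptor, cytokine, interferon and marker lists, partners of named ligands and genes with an unadjusted p under 0.05. Outside that rule, Car1, Muc2, Cdx2, Cr2, Fcer2a, Siglecf, Il18, Il1b, Tnf, Ackr3, Ackr4, Madcam1, Clu, Ly6g and Lct were picked from their lists after their values were seen. The other genes of the neutrophil list and of the follicle-associated epithelium list were also named after their values were seen. So were Fabp6, Lyz1, Sis, Apoa4, Apoc3, Fabp4 and Lep. Promoter sequences and positions are from RefSeq, GRCm38.p6, in which all 30 members were found. The values of 1 receptor gene are not reported here.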

Additional observations from a re-analysis of the deposited data

How the results depend on the processing

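No chemokine ligand had an adjusted p under 0.05 in limma in 13 of 15 alternative settings; the exceptions were array weights and the fit without maternal DSS 1. Array weights gave 6784 genes with an unadjusted and 4933 with an adjusted p under 0.05 (36.3% of genes), with 7 and 5 ligands, the latter Ccl5, Ccl20, Ccl25, Ccl28 and Cxcl13. Within its group, that fit weighted maternal DSS 2 most (5.47, against 0.25 and 0.45 for maternal DSS 1 and 3). Without maternal DSS 2, the log2 fold changes of Ccl20 and Ccl28 were -0.17 and -0.11. A filter of 5 FPKM left 677 genes and 0 ligands at the unadjusted threshold, and an inflammatory median of 0.34. A replicate block gave 1678 genes and 3 ligands unadjusted. Deviations of same-numbered libraries from their group means correlated at 0.28, -0.38 and 0.40. With 3 libraries per group, these correlations cannot decide whether the numbers pair libraries, and the labels state no pairing. Leaving out 1 library gave 401 to 3368 genes and 0 to 4 ligands unadjusted, 0 to 12 genes and 0 to 1 ligands adjusted, and an inflammatory median of -0.17 to 0.17. Without maternal DSS 2 and 3 there were 0 ligands unadjusted, and the inflammatory and mixed medians were -0.15 and -0.12; after TPM scaling the mixed median was -0.076. The cause was not tested.

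Of 290 log2 fold changes of members under alternatives, 45 changed sign, at sizes up to 0.58. After TPM scaling these were Ccl12 -0.038, Ccl27a -0.053, Ccl28 -0.048, Ccl6 -0.076, Cxcl14 -0.098 and Cxcl16 -0.092. After median-ratio scaling they were Ccl21b 0.0057 and Cx3cl1 0.037. With array weights they were Ccl2 0.12, Ccl21a 0.044, Ccl21b 0.10, Cx3cl1 0.083 and Cxcl12 0.0044. Without maternal DSS 2 and 3 they were Ccl11 -0.15, Ccl20 -0.30, Ccl25 -0.023, Ccl28 -0.31, Ccl5 -0.38, Ccl6 -0.58 and Cxcl16 -0.045. With 1 library left out, the log2 fold change ran from -0.22 to 0.19 for Ccl12, -0.24 to 0.014 for Ccl2, -0.17 to 0.29 for Ccl20, -0.21 to 0.026 for Ccl21a, -0.14 to 0.11 for Ccl21b, -0.088 to 0.11 for Ccl27a, -0.11 to 0.24 for Ccl28, -0.16 to 0.34 for Ccl6, -0.061 to 0.035 for Cx3cl1, -0.22 to 0.12 for Cxcl10, -0.081 to 0.12 for Cxcl14 and -0.034 to 0.043 for Cxcl16. Depth is unknown, so the precision of ligands under 1 FPKM could not be given.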

Other observations

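The 3 pseudogene rows left out of the members were low in all libraries. Cxcl11, which RefSeq annotates as a transcribed pseudogene in this strain's assembly, had 0.068 to 0.114 FPKM, Ccl19-ps1 had 0.117 to 0.265 FPKM and Ccl19-ps2 had 0.060 to 0.277 FPKM. Pf4, a platelet chemokine whose symbol falls outside the rule, ranged from 13.2 to 17.3 FPKM in controls and from 14.7 to 19 FPKM after maternal DSS, so the groups overlapped. Ppbp, also outside the rule, had 0.41 to 0.94 FPKM in controls and 0.59 to 1.01 FPKM in maternal DSS libraries.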
